A study of Danio rerio with 3 samples.

Results

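The data described here are the gene levels of zebrafish (Danio rerio) embryos treated with wheat germ agglutinin (WGA) and collected at 5 hours post fertilisation (hpf), set against embryos given the same treatment and collected at 4.3 hpf, 0.7 hours earlier. WGA is a lectin, a sugar-binding protein, that attaches to sugar-modified nucleoporins and hinders traffic through nuclear pores. Genes were taken where the level was at least 1 FPKM (fragments per kilobase of transcript, scaled for the depth of the library) in either WGA library, which left 13478 of the 25386 genes of the deposited table. Both groups were wild type by the series' labels and both had received 0.65 ng of WGA in 1 nl, delivered to the yolk at the 1-cell stage. Each group was 1 library of poly(A) RNA from whole embryos without their chorions. The labels describe the embryos at 5 hpf as dome-like and give no stage name for the WGA embryos at 4.3 hpf. They do not state how many embryos were pooled. The series also holds 1 library of untreated embryos at 4.3 hpf, the dome stage, which enters no comparison below. What follows is therefore a difference between treated libraries of different age, and how it compares with untreated embryos over the same interval was not measured.

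The zebrafish embryo starts on RNA and protein stored in the egg. Its own genome is then switched on during the blastula stages, a step called zygotic genome activation, while part of the stored maternal RNA is degraded. Among the earliest tissues to become distinct are the enveloping layer, a flat epithelium that covers the blastoderm, and the yolk syncytial layer, a nucleated layer at the surface of the yolk cell that feeds the embryo and sends signals inducing mesoderm and endoderm.

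Because there was 1 library per group, no difference has a replicate check and no p-value is given. Each difference is the log2 ratio of (FPKM + 1) at 5 hpf over 4.3 hpf, so a positive value is higher at 5 hpf, and folds are on this scale, which understates the change of low genes. A gene counts as higher or lower from a 2-fold difference upward. Some genes were picked for mention after their values had been seen, and the methods list them. In RNA of whole embryos, more cells of a type and more RNA per cell cannot be told apart.

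Few genes moved that far. Of the 13478 genes measured, 104 (0.772%) were higher at 5 hpf by at least 2-fold and 48 (0.356%) were lower, 1.13% in all. The median log2 ratio over all genes was -0.05 (SD over genes 0.31), and its quartiles were -0.22 and 0.11. The genes higher at 5 hpf were mostly scarce ones. Their median level was 4.52 FPKM at 5 hpf, against 1.17 FPKM at 4.3 hpf, and together they summed to 1379 FPKM at 5 hpf, against 491 FPKM at 4.3 hpf. The lower genes had a median of 3.58 FPKM at 5 hpf, against 9.22 FPKM at 4.3 hpf. Of the higher genes, 46 had passed the limit of 1 FPKM only through their level at 5 hpf and so had to differ, whereas 58 passed it in both libraries. Of the lower genes, 9 had passed only through their level at 4.3 hpf and 39 passed in both. At the edge of the limit, 20 genes had 1.00 FPKM as their higher value and 28 had 0.99 FPKM. At the edge of 2-fold, the dynein light chain gene dynll1 was just inside at 90.15 FPKM at 5 hpf, against 44.46 FPKM at 4.3 hpf, and the sulfotransferase gene sult6b1 was just outside at 20.31 FPKM, against 9.69 FPKM.

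**Figure D1:**
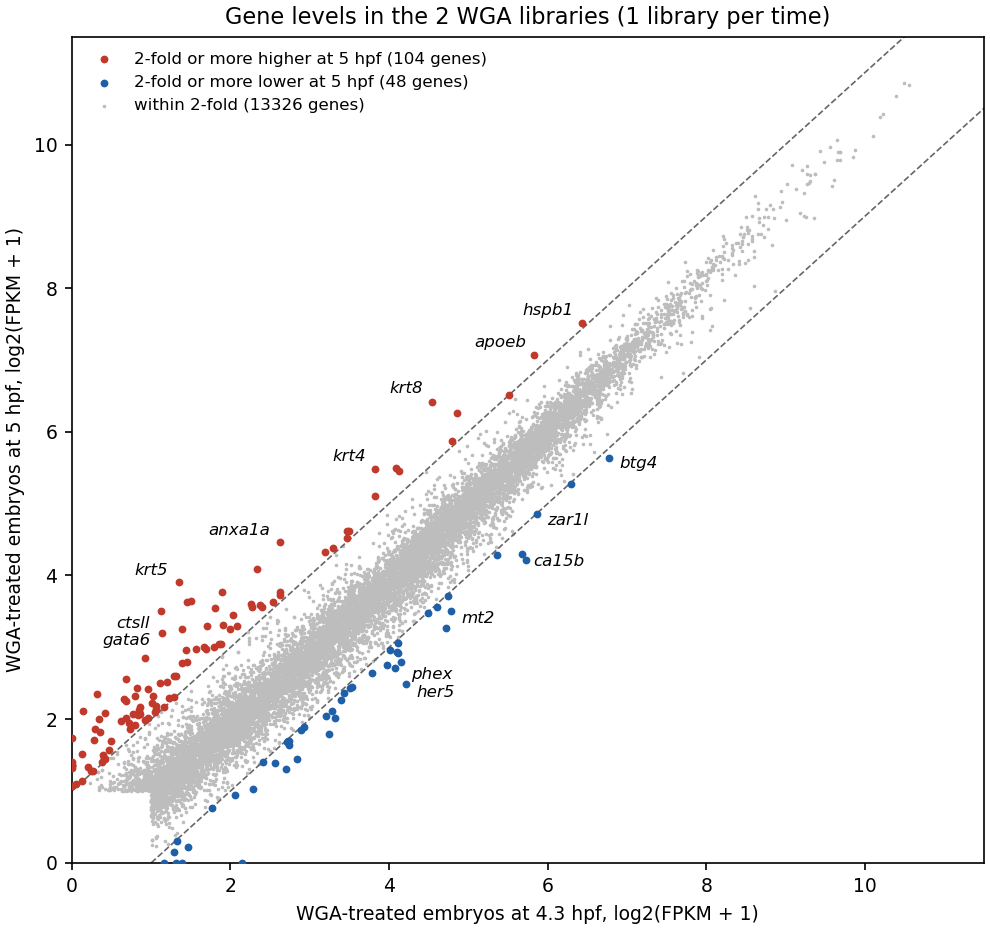
Level of each measured gene as log2(FPKM + 1) in WGA-treated embryos at 5 hpf (vertical axis) and at 4.3 hpf (horizontal axis), with 1 library per time and dashed lines at a 2-fold difference. Of 13478 genes, the 104 red points are higher at 5 hpf by at least 2-fold and the 48 blue points are lower, and most of both sit at low levels.

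The cell types present were checked against marker lists. No gene of an 11-gene red blood cell list reached 1 FPKM in either WGA library. Of 29 genes of segmentation and later patterning 3 were measured, none higher or lower by 2-fold. Of 12 muscle markers 1 was measured, of 11 neuron markers 3, of 10 gut and liver markers 1 and of 10 ovarian follicle markers 2, and none of these differed by 2-fold. Blastula regulators were abundant and similar in both libraries. The homeobox gene nanog was at 968.2 FPKM at 5 hpf, against 935.0 FPKM at 4.3 hpf. Of the other maternal activators of the zygotic genome, pou5f3 was at 419.1 against 423.6 FPKM, and sox19b at 291.6 against 292.6 FPKM. These 3 log2 ratios lay within 0.06 of 0, and their signs turn with the scaling of the libraries. Across 23 genes that regulate genome activation, none differed by 2-fold, where 1.13% of all genes measured did, so that count says nothing. Their median was 0.04, which turned negative when the libraries were rescaled to equal sums (TPM) or to ribosomal protein genes.

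Outer epithelium genes, and keratins above all, were among those higher at 5 hpf. Of 30 measured genes of the enveloping layer list, out of 45 in the table, 13 were higher by at least 2-fold and 0 were lower. The median log2 ratio was 0.39, with an SD of 0.92 among members. Keratins, the intermediate filament proteins of epithelia, led it. All 9 keratin genes measured, out of 17 in the table, were higher by at least 2-fold, with a median of 1.66. The other 8 lay below 1 FPKM in both libraries. Of the 9, 6 passed 1 FPKM in both libraries, and the other 3 passed only through 5 hpf and so had to be higher there. With a pseudocount of 5 in place of 1, 5 keratins were higher. The measured keratins summed to 246.2 FPKM at 5 hpf, against 70.6 FPKM at 4.3 hpf.

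Krt5 (NCBI Gene 797351) had the largest ratio of all 13478 genes. It was at 14.08 FPKM at 5 hpf, against 1.54 FPKM at 4.3 hpf, a log2 ratio of 2.57. The type I and type II keratins krt18 and krt8, which pair into filaments, were the most abundant of the group. Krt8 was at 84.54 FPKM at 5 hpf, against 22.21 FPKM at 4.3 hpf, and krt18 at 75.92 FPKM, against 27.86 FPKM. Krt4, a widely used marker of this layer, was at 43.65 FPKM, against 13.09 FPKM. Krt92 was at 11.41 FPKM, against 1.73 FPKM, and krt97 at 10.86 FPKM, against 3.81 FPKM. The remaining measured keratins were scarce at both times. Cyt1 was at 3.02 FPKM at 5 hpf, against 0.27 FPKM at 4.3 hpf, and krt17 at 1.21 FPKM, against 0.09 FPKM. Cyt1l was at 1.54 FPKM at 5 hpf and is listed at 0 at 4.3 hpf. Keratin genes are near copies of each other and may share reads, so their values are uncertain one by one, while their sum is less affected.

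Other structural and secreted products of the layer were higher too. Anxa1a, a membrane-binding annexin, was at 21.21 FPKM at 5 hpf, against 5.18 FPKM at 4.3 hpf. Lye was at 33.54 FPKM, against 13.13 FPKM. Cldne, a claudin of tight junctions, was at 23.47 FPKM, against 10.26 FPKM. The calpain protease gene capn9 was at 3.75 FPKM, against 0.60 FPKM. With the 9 keratins these 4 genes make up the 13, of which 4 (the 3 keratins and capn9) passed 1 FPKM only through 5 hpf. With a pseudocount of 5, 7 of the list were higher.

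Transcription factor genes of the same list lay within 2-fold. The grainyhead gene grhl1 had a log2 ratio of 0.42. The Krüppel-like factor klf17 stood at 23.62 FPKM at 5 hpf, against 32.77 FPKM at 4.3 hpf, and grhl3, a grainyhead factor of surface epithelia, at 26.3 FPKM, against 27.9 FPKM. The adhesion gene epcam, abundant as a maternal transcript, was at 511.3 FPKM, against 599.8 FPKM.

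Genes of the yolk syncytial layer were also higher. Of 15 measured genes of its list, out of 32 in the table, 9 were higher by at least 2-fold and 0 were lower. The median log2 ratio was 1.34, with an SD of 0.65 among members. Of the 9, 4 passed 1 FPKM in both libraries and 5 only through 5 hpf, so that those 5 had to be higher there. Of the 15 behind the median, 7 passed only through 5 hpf. The count of higher genes was 2 with a pseudocount of 5 and 5 with a filter at 5 FPKM. The measured members summed to 232.1 FPKM at 5 hpf, against 110.9 FPKM at 4.3 hpf. Among regulators, gata6 (NCBI Gene 58076), a GATA factor of endoderm and yolk, was at 8.23 FPKM at 5 hpf, against 1.19 FPKM at 4.3 hpf, a log2 ratio of 2.08. The related gata5 was at 3.87 FPKM, against 0.57 FPKM. Hnf4a, a nuclear receptor of lipid metabolism, was at 4.38 FPKM, against 0.76 FPKM. The forkhead gene foxa3 was at 11.16 FPKM, against 3.79 FPKM.

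Genes for carrying lipid out of the yolk stood beside these regulators. Apoeb (NCBI Gene 30314), an apolipoprotein E, was the most abundant member at 132.7 FPKM at 5 hpf, against 56.0 FPKM at 4.3 hpf. Apoc1, a second apolipoprotein, was at 7.03 FPKM, against 2.18 FPKM. Mtp, the triglyceride transfer protein that loads lipoproteins, was at 1.87 FPKM, against 0.09 FPKM. The antifreeze-protein family gene afp4 was at 6.22 FPKM, against 0.90 FPKM, and the sulfate transporter gene slc26a1 at 2.28 FPKM, against 0.21 FPKM. These 9 members range from 1.23 to 2.08 in log2 ratio. Of the homeobox regulators that act early in the layer, mxtx1 was at 5.73 FPKM, against 2.84 FPKM, within 2-fold. Mxtx2, which switches on genes of this layer, was at 34.69 FPKM, against 31.22 FPKM.

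**Figure D2:**
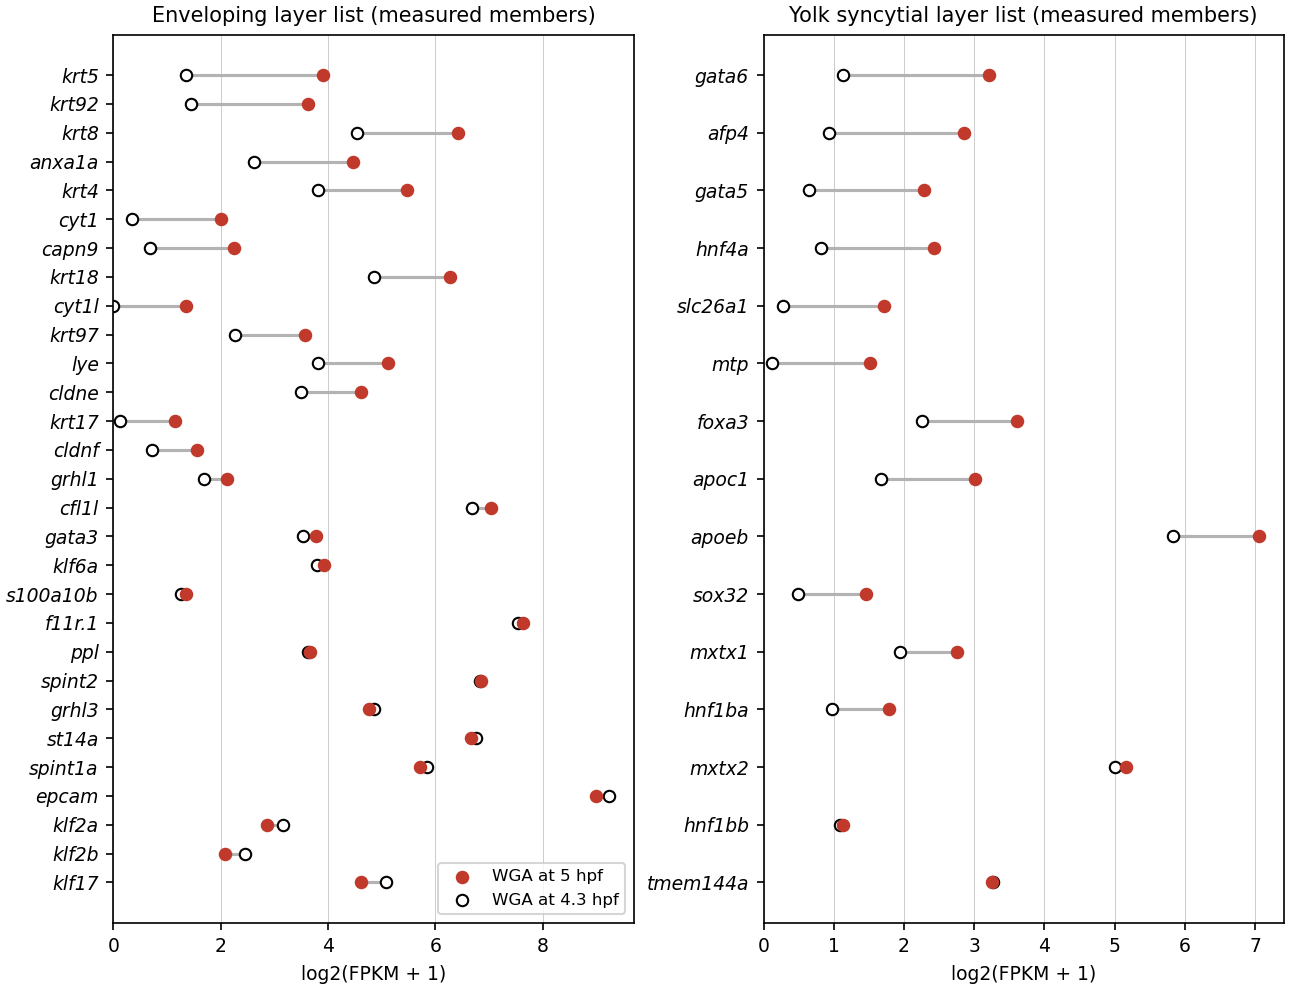
Level as log2(FPKM + 1) of the measured members reported here of the enveloping layer list (left) and the yolk syncytial layer list (right) in WGA-treated embryos at 5 hpf (red) and at 4.3 hpf (open), 1 library per time. In the left panel 13 genes, 9 of them keratins, and in the right panel 9 of 15 genes are higher at 5 hpf by at least 2-fold, while klf17 and epcam are lower at 5 hpf by less than that.

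The Nodal ligands, secreted factors of the TGF-beta family, induce both germ layers through receptors and Smad proteins. Of 26 genes of the Nodal list, all measured, 3 were higher by at least 2-fold and 0 lower, against 0.772% and 0.356% of all genes measured. The list median was 0.07, and -0.30 after scaling to ribosomal protein genes. Of the 26, 3 passed 1 FPKM only through 5 hpf and so had to be higher there, though none of these 3 reached 2-fold. The ligand ndr2 was at 3.51 FPKM at 5 hpf, against 1.23 FPKM at 4.3 hpf. Among targets, ta, the zebrafish brachyury gene of mesoderm and notochord, was at 8.95 FPKM, against 2.75 FPKM. Mixl1, a homeobox gene of mesendoderm, was at 12.64 FPKM, against 5.14 FPKM.

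Several further targets were higher but within 2-fold. Sox32, which commits cells to endoderm, was at 1.76 FPKM at 5 hpf, against 0.41 FPKM at 4.3 hpf, a log2 ratio of 0.97. It passed 1 FPKM only through 5 hpf and so had to be higher there. Tbx16, a T-box gene of mesoderm, was at 39.68 FPKM, against 23.43 FPKM, a log2 ratio of 0.74. The organizer gene gsc was at 5.28 FPKM, against 3.87 FPKM. The Nodal co-receptor gene tdgf1, the factors foxh1 and eomesa and the ligand gdf3, all stored in the egg, had log2 ratios from -0.03 to 0.06, and all of them lay below 0 after scaling to ribosomal protein genes.

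Of 11 measured endoderm genes 4 were higher by at least 2-fold, namely gata6, gata5, foxa3 and mixl1, and 0 were lower, with a median of 0.70. Of the 11, 4 passed 1 FPKM only through 5 hpf, gata5 among them, and so had to be higher there. The endoderm calls are not further ones, since gata6, gata5 and foxa3 also stand in the yolk syncytial layer list and mixl1 in the Nodal list. Of 15 measured mesoderm genes 2 were higher, ta and mixl1, both also in the Nodal list, and 0 were lower, with a median of 0.42. Of 19 measured genes of the dorsal organizer, 1 was higher, foxa3, with a median of 0.29. Over all genes measured 0.772% were higher and 0.356% lower, and 1 organizer gene is not a result about its list. In each of the mesoderm and organizer lists 3 genes passed only through 5 hpf. Only through 4.3 hpf passed 2 mesoderm genes and 1 organizer gene. The BMP antagonist chd was at 7.79 FPKM at 5 hpf, against 3.72 FPKM at 4.3 hpf. These medians kept their sign under each scaling tried, though the organizer median came to 0.00 after scaling to ribosomal protein genes. Of 94 measured homeobox, T-box, forkhead, Sox and GATA genes, 6 were higher and 0 lower, and these were gata6, gata5, ta, foxa3, ved and mixl1, while the list median was -0.01, and 0.02 under median-of-ratios scaling.

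Other signalling lists had 1 member each beyond 2-fold. As 1.13% of all genes measured passed 2-fold, a single member is not a result about its list. In the FGF list, the ligand fgf8a was at 4.72 FPKM at 5 hpf, against 1.29 FPKM at 4.3 hpf, and it was 1 of 19 measured genes. The second ligand fgf17 was at 6.38 FPKM, against 2.72 FPKM, just within 2-fold. In the Wnt list of 29 measured genes, the secreted Wnt inhibitor notum1a was at 4.34 FPKM, against 0.95 FPKM. Notum1a passed 1 FPKM only through 5 hpf and so had to be higher there. The ligand wnt11 was at 16.74 FPKM, against 9.06 FPKM. The BMP and ventral list of 25 measured genes had ved, a homeobox repressor of the ventral embryo, at 23.62 FPKM, against 10.04 FPKM. Its partner vent was at 8.44 FPKM, against 5.09 FPKM, and vox at 23.72 FPKM, against 17.89 FPKM. The ligand bmp7a was at 7.51 FPKM, against 3.70 FPKM, whereas bmp2b was at 6.86 FPKM, against 7.11 FPKM, and bmp4 at 2.61 FPKM, against 2.28 FPKM. In the list of retinoic acid and hox genes, 1 of 9 measured genes was higher, the retinoic acid-binding protein gene crabp2b at 7.29 FPKM, against 2.63 FPKM.

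Of 16 measured neuroectoderm genes 0 were higher and 1 was lower, with a median of -0.13. The lower gene was her5 (NCBI Gene 30285), a Hairy-related repressor gene active near the future midbrain-hindbrain boundary and in endoderm. It had the lowest ratio of any gene with a name other than a LOC number, at 4.59 FPKM at 5 hpf, against 17.52 FPKM at 4.3 hpf, a log2 ratio of -1.73. It was also the 1 lower gene of 13 in the Notch and Hairy list. With 0.356% of all genes measured lower, 1 member is not a result about either list. Irx7, an Iroquois gene active in neuroectoderm, was at 11.65 FPKM, against 20.85 FPKM. Sox19a and zic2b, which mark early neural cells, were at 15.36 FPKM, against 10.73 FPKM, and at 35.82 FPKM, against 27.46 FPKM.

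Genes of the first zygotic wave, the earliest set transcribed from the embryo's genome, were thus uneven. Of 49 measured, 9 were higher by at least 2-fold and 1, her5, was lower, against 0.772% and 0.356% of all genes measured. The median of the 49 was 0.42 (SD 0.69 among members), and 35 of them lay above 0. Of the 49, 2 passed 1 FPKM only through 5 hpf and so had to lie above 0. Among those not yet described, polr3gla, a subunit of RNA polymerase III, was at 42.74 FPKM at 5 hpf, against 16.42 FPKM at 4.3 hpf. Hspb1, a small heat shock protein, was at 182.1 FPKM, against 85.4 FPKM. At the other end, blf, a zinc-finger gene, was at 36.70 FPKM, against 53.87 FPKM.

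Among the genes higher by at least 2-fold, 60 of 104 belonged to no list. Of the higher genes named next, ak3 and dnase1l4.1 belonged to none, and the others stood on lists. Over all 13478 genes measured, 1595 belonged to a list, and the lists were chosen with earlier results of these data known. The cathepsin L-like protease gene ctsll (NCBI Gene 449826) ranked just after krt5, at 10.34 FPKM at 5 hpf, against 1.17 FPKM at 4.3 hpf, a log2 ratio of 2.39. A second cathepsin, ctsh, was at 2.93 FPKM, against 0.54 FPKM, and no other gene of the 14 measured in the hatching gland and cathepsin list reached 2-fold. Ctsh passed 1 FPKM only through 5 hpf and so had to be higher there. Beside 0.772% higher over all genes measured, 2 members are too few to read as a result about that list. The amino acid transporter subunits slc3a2b and slc7a8a, a heavy and a light chain of the heteromeric exchanger family, were at 10.71 FPKM, against 2.49 FPKM, and at 8.87 FPKM, against 2.27 FPKM. With slc26a1, which passed 1 FPKM only through 5 hpf, they were the 3 genes higher among 191 solute carriers measured. None of the 191 was lower by 2-fold. Over all genes measured 0.772% were higher and 0.356% lower, so these counts are not a result about solute carriers. Ak3, an adenylate kinase, was at 16.02 FPKM, against 4.06 FPKM. Dnase1l4.1, a DNase I-like nuclease, was at 12.59 FPKM, against 2.71 FPKM. Stm, the starmaker gene known for otolith mineral, was at 44.25 FPKM, against 16.06 FPKM.

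Lcp1, an actin-bundling plastin, was at 4.87 FPKM at 5 hpf, against 0.61 FPKM at 4.3 hpf. It stood on a list of 9 white blood cell markers, of which 3 were measured. The list summed to 9.54 FPKM at 5 hpf, against 4.08 FPKM at 4.3 hpf, most of it in lcp1 and coro1a, an actin regulator at 3.25 FPKM, against 2.41 FPKM. The third measured gene, mfap4, was at 1.15 FPKM, against 0.96 FPKM. Lcp1 and mfap4 passed 1 FPKM only through 5 hpf and so had to be higher there. As 0.772% of all genes measured were higher by 2-fold, lcp1 alone is not a result about the list. Below 1 FPKM in both libraries, spi1b was at 0.15 FPKM at 5 hpf, against 0.06 FPKM at 4.3 hpf. Lyz was at 0.10 FPKM and mpx at 0.02 FPKM at 5 hpf, and both are listed at 0 at 4.3 hpf. Ptprc, cd74a and csf1ra are listed at 0 at 5 hpf and at 0.02 FPKM or less at 4.3 hpf.

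Some genes higher at 5 hpf lie side by side. In the gene order of assembly GRCz12tu, used for order alone, 7 of 12947 pairs of neighbouring measured genes had both members higher by at least 2-fold, and 0 pairs had both lower. Placed in that order were 95 higher and only 41 lower genes, so the 0 pairs are not a result about the lower genes. The 7 pairs were krt5 with krt8 and krt8 with krt18, the run of krt92, cyt1l, cyt1 and krt17, apoeb with apoc1, and duox2 with duox. Of these, cyt1l, cyt1, krt17, duox and duox2 passed 1 FPKM only through 5 hpf and so had to be higher there. The dual oxidase genes duox and duox2 had 1.74 and 1.65 FPKM at 5 hpf, against 0.32 and 0.30 FPKM at 4.3 hpf. Duox and duox2 are similar in sequence and may share reads.

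Of the 48 genes lower at 5 hpf, 43 belonged to no list and 15 had LOC numbers in place of a name. Over all 13478 genes measured, 1595 belonged to at least 1 list. What the lower genes share can therefore not be read from that count. The 5 lower genes that belonged to a list were her5, ca15b, btg4, zar1l and dnajc3a. Of 53 measured genes of the oocyte and egg list, 3 were lower by at least 2-fold and 1, stm, was higher. Over all genes measured 0.356% were lower and 0.772% higher. The measured members summed to 7047 FPKM at 5 hpf, against 6892 FPKM at 4.3 hpf. All genes of the table summed to 411178 FPKM, against 401114 FPKM, so the list sum alone does not say how the list moved. The list median log2 ratio was -0.11, with 33 of 53 below 0. The median of all genes measured was -0.05, so most genes lay below 0 too. After scaling to ribosomal protein genes the list median was -0.49, against -0.38 over all genes, with 10 members lower and 1 higher. Ca15b, a carbonic anhydrase gene whose RNA enters the germ plasm, was at 18.72 FPKM at 5 hpf, against 50.36 FPKM at 4.3 hpf. Btg4, an adaptor that brings the CCR4-NOT deadenylase to maternal mRNA in the mouse egg, was at 48.91 FPKM, against 108.2 FPKM. Zar1l, related to the egg protein Zar1, was at 27.91 FPKM, against 57.31 FPKM.

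Other egg transcripts lay in the same direction within 2-fold. Slbp2, an egg form of the histone mRNA-binding protein, was at 51.64 FPKM at 5 hpf, against 94.60 FPKM at 4.3 hpf. Cldnd, a maternal claudin and the most abundant of these, was at 209.8 FPKM, against 373.1 FPKM. The gene fbxo43, which holds the egg in meiotic arrest, was at 37.21 FPKM, against 64.96 FPKM. Many egg transcripts were level, among them buc, the organiser of the Balbiani body, at 364.8 FPKM, against 349.7 FPKM, and the germ plasm gene tdrd6 at 39.93 FPKM, against 38.67 FPKM. Of 27 germ plasm genes 1 was lower, ca15b, with a median of -0.09, and dnd1, which protects germ cell RNA, was at 12.35 FPKM, against 20.37 FPKM. Of 54 genes of the microRNA and mRNA decay machinery 1 was lower, btg4, with a median of -0.00, or 0.03 under median-of-ratios scaling. As 1.13% of all genes measured passed 2-fold, 1 member is not a result about the germ plasm or the decay list. The microRNA-processing nuclease gene rnasen (drosha) was at 10.33 FPKM, against 21.22 FPKM, just within 2-fold.

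Outside the lists, metallothionein mt2, which binds metal ions, was at 10.38 FPKM at 5 hpf, against 26.53 FPKM at 4.3 hpf. Phex, a membrane peptidase gene, was at 5.93 FPKM, against 16.77 FPKM, and the formin-related fhdc2 at 5.54 FPKM, against 15.83 FPKM. Acd, a telomere-binding protein, was at 3.04 FPKM, against 8.96 FPKM. Cdca9, a borealin-like part of the chromosomal passenger complex, was at 5.74 FPKM, against 14.71 FPKM. The ubiquitin ligase rnf8, which marks DNA breaks, was at 6.64 FPKM, against 16.18 FPKM. Ube2t, the conjugating enzyme of the Fanconi anaemia pathway, was at 5.25 FPKM, against 12.74 FPKM, and rad17, a checkpoint clamp loader, at 2.7 FPKM, against 6.61 FPKM. These genes come from the 20 lowest by ratio, not all of which are given here, so what they share is not a result. Others of the 20, ldlrap1a (log2 ratio -1.18) and tmem203 (-1.12) among them, lay below rad17 (-1.04). Of 46 cell cycle genes and 44 DNA replication genes measured, 0 were higher or lower by 2-fold, with medians of -0.10 and -0.09. Since 1.13% of all genes measured passed 2-fold, nothing can be read from a count of 0 in lists of this size. The checkpoint kinase chek1 was the lowest cell cycle gene at 11.91 FPKM, against 20.40 FPKM.

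**Figure D3:**
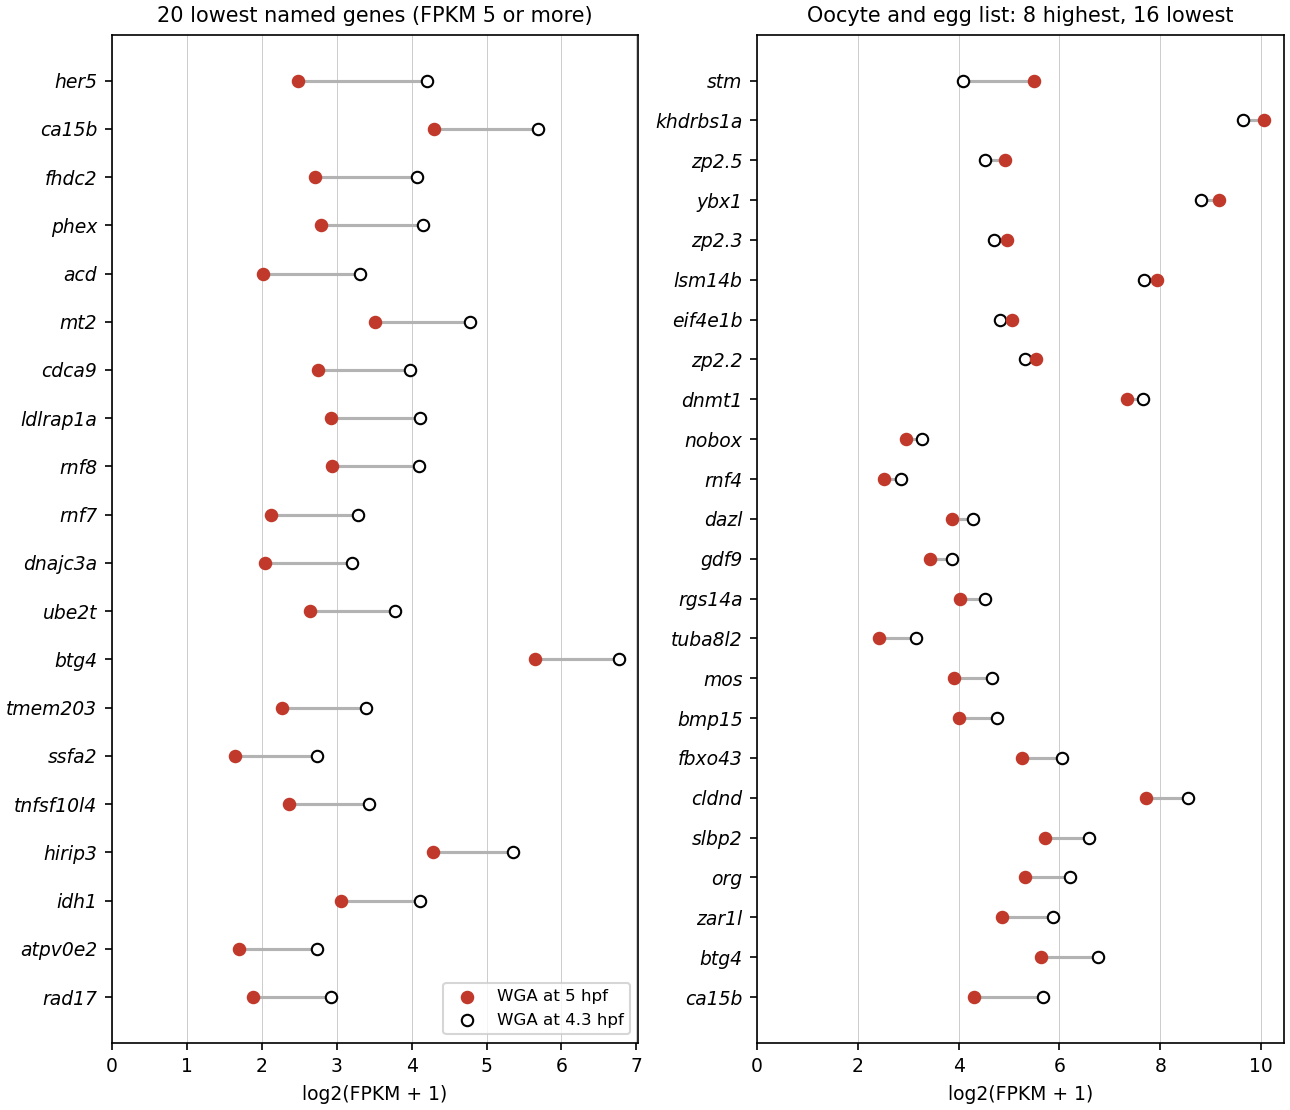
Level as log2(FPKM + 1) in WGA-treated embryos at 5 hpf (red) and at 4.3 hpf (open), 1 library per time, for the 20 genes with the lowest ratio among named genes at 5 FPKM or more (left) and for the oocyte and egg genes with the highest and lowest ratios (right). All 20 genes on the left are lower at 5 hpf by at least 2-fold, whereas on the right ca15b, btg4 and zar1l reach 2-fold and stm is higher.

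Stress genes mostly lay within 2-fold. Of 28 measured cytosolic heat shock genes 2 were higher by at least 2-fold and 0 lower, with a median of 0.08 that was -0.29 after scaling to ribosomal protein genes. Over all genes measured 0.772% were higher and 0.356% lower, and 2 members are too few to read as a result about a list. The higher heat shock genes were hspb1, given above, and serpinh1a, a collagen chaperone, at 1.96 FPKM at 5 hpf, against 0.38 FPKM at 4.3 hpf. Serpinh1a passed 1 FPKM only through 5 hpf and so had to be higher there. Hsp70.3, an inducible chaperone whose near copies may share reads, was at 4.49 FPKM, against 6.97 FPKM. Beside a median of -0.05 over all genes, endoplasmic reticulum stress genes had a median of -0.18, with 24 of 34 below 0. The 1 of them lower by 2-fold was dnajc3a, a co-chaperone, at 3.12 FPKM, against 8.23 FPKM. Hspa5, the main chaperone of that compartment, was at 150.9 FPKM, against 222.9 FPKM. Of 36 p53 and apoptosis genes 2 were higher and 0 lower by 2-fold, again too few to read beside the shares over all genes. The median was 0.13, or -0.24 after scaling to ribosomal protein genes, with 23 above 0 and 13 below. The 2 higher ones were sesn3, a stress-responsive sestrin, at 6.85 FPKM, against 2.22 FPKM, and phlda3, a p53 target, at 11.07 FPKM, against 4.18 FPKM. Within 2-fold, pmaip1, gadd45aa and gadd45bb of the same list had log2 ratios of 0.96, 0.85 and 0.78, and bida had -0.78. Cdkn1a, the p21 inhibitor and a p53 target, was at 4.90 FPKM, against 5.14 FPKM.

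Of 30 nucleoporin genes and 37 genes of nuclear transport receptors and the Ran cycle, 0 were higher or lower by 2-fold, a count from which nothing can be read in lists of this size when 1.13% of all genes measured passed 2-fold. The medians of 0.02 and 0.05 turned negative after scaling to ribosomal protein genes, the first of them under TPM as well. The same count of 0 in either direction held for the proteasome (50 genes), the respiratory chain and ATP synthase (86), mitochondrial ribosomal proteins (71), translation factors (75) and sterol and lipid synthesis (28).

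Most cytosolic ribosomal protein and spliceosome genes lay above 0 by small amounts. Of 82 cytosolic ribosomal protein genes 81 lay above 0, with a median log2 ratio of 0.38 and 0 at 2-fold. Scaling to these same genes brings that median to 0.00 by construction. As deposited, the 82 genes summed to 7757 FPKM at 5 hpf, against 5944 FPKM at 4.3 hpf, and the 1 below 0 was rps8b at -0.44. Of 83 spliceosome genes 70 lay above 0, with a median of 0.25 that was -0.13 after scaling to ribosomal protein genes. Zinc-finger genes numbered 900 and above, many of them in arrays of near copies, lay below 0 in 41 of 54, with a median of -0.20. Over all genes measured the median was -0.05. Level itself moved with the ratio. The median was -0.12 for 2029 genes at a mean of 5 to 10 FPKM and 0.22 for 43 genes above 500 FPKM. The part of level in the list medians was not tested.

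The balance of higher and lower genes depends on the limit and on the scale. At 1.5-fold or more 304 genes (2.26%) were higher and 539 (4%) lower, 6.25% in all, so that 36.1% of the calls were higher, against 68.4% at 2-fold. Scaling to the median of the ribosomal protein genes shifted the median of all genes by -0.33 (log2), to -0.38, and gave 57 genes higher and 332 lower, with 14.7% higher. On that scale the keratins kept 7 genes higher, the yolk syncytial layer list 8 and the enveloping layer list 9, with 1 of its genes lower. A total of RNA per embryo was not measured, so which scale is nearest to molecules per embryo is not known.

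**Figure D4:**
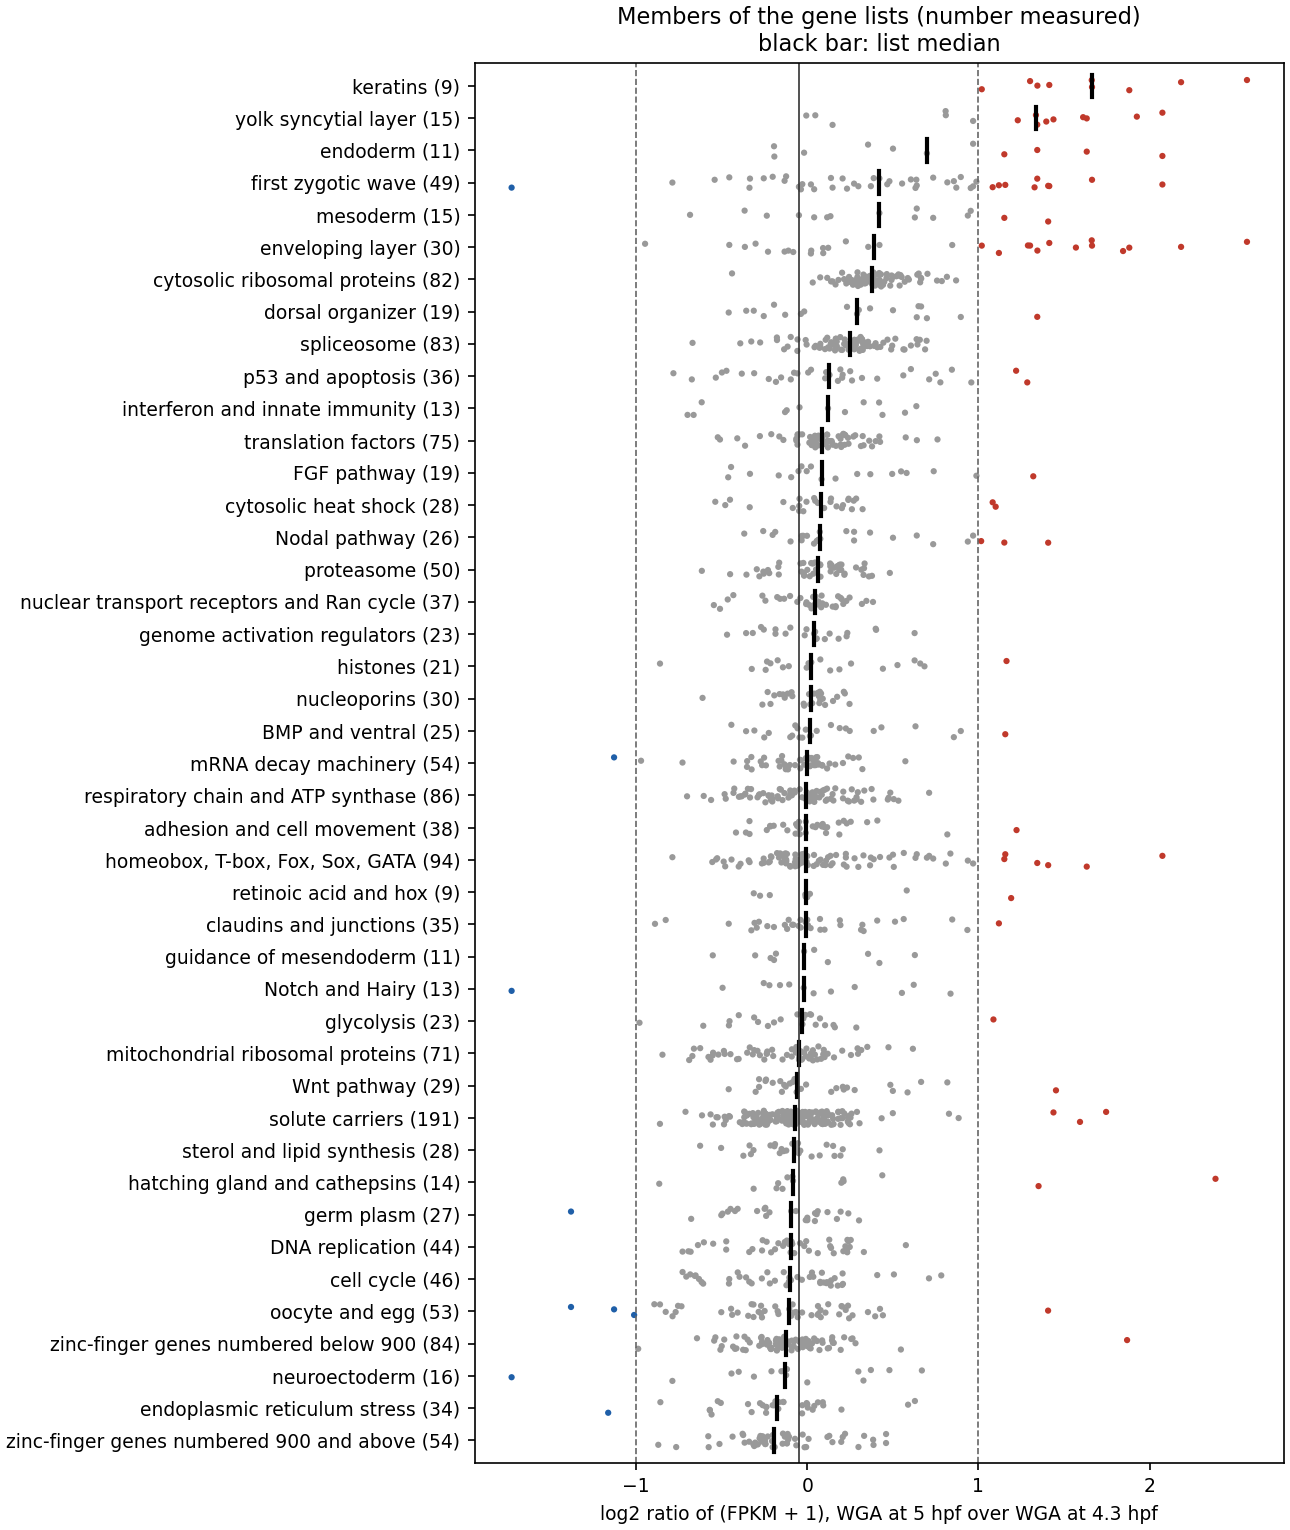
Log2 ratio of (FPKM + 1) at 5 hpf over 4.3 hpf for measured members of the gene lists (points, number measured in brackets) with the list median (black bars), dashed lines at 2-fold and a grey line at the median of all genes, -0.05. Keratins and the yolk syncytial layer have medians of 1.66 and 1.34 and every other list has a median within 2-fold. Of the measured members, 3 of 9 keratins and 7 of 15 yolk syncytial layer genes passed 1 FPKM only through 5 hpf. These had to be higher there, and both list medians are smaller without the filter. Several medians near 0 turn sign when the libraries are rescaled, as do the spliceosome and p53 medians after scaling to ribosomal protein genes.

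**Figure D5:**
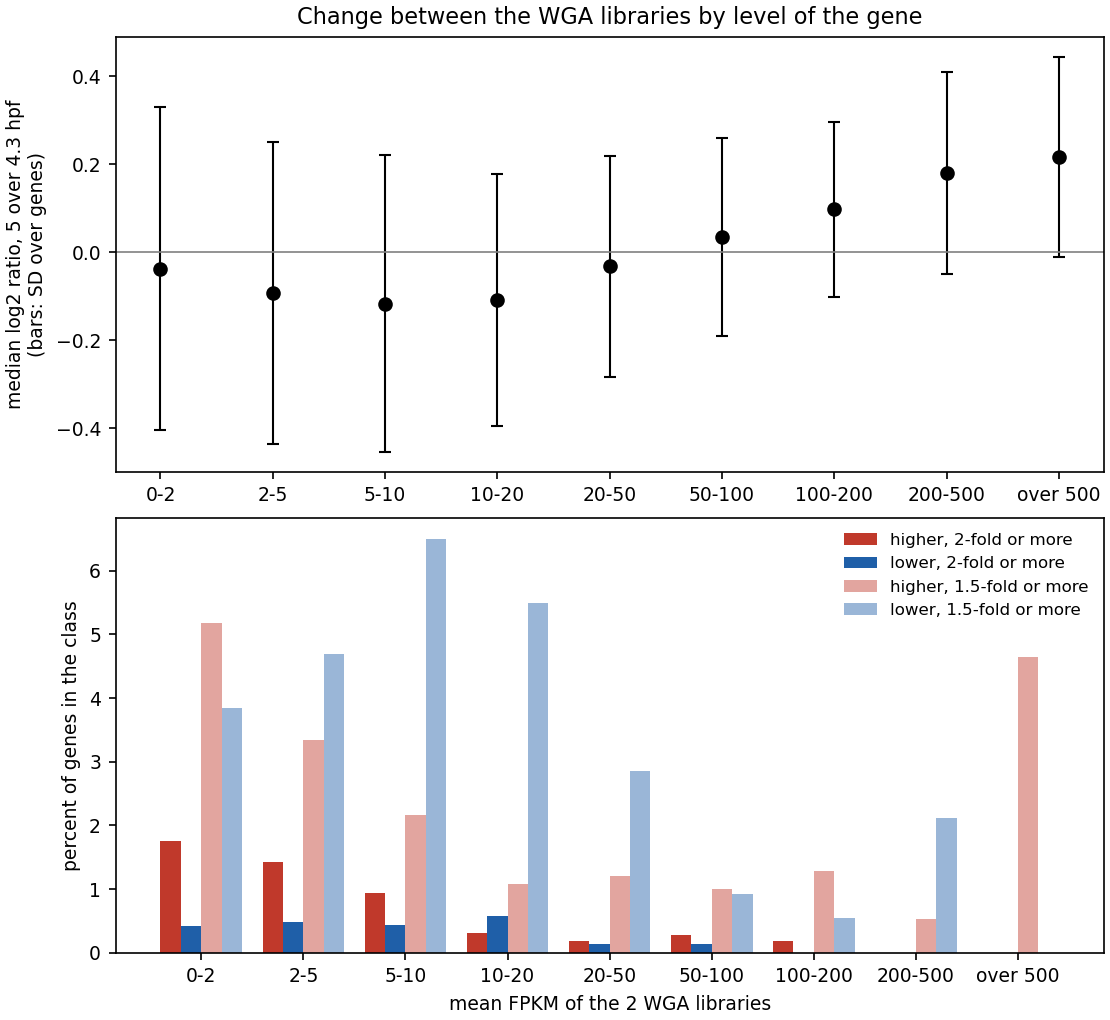
Median log2 ratio at 5 hpf over 4.3 hpf (top, bars are the SD over genes) and percent of genes higher or lower by 2-fold and by 1.5-fold (bottom), by mean FPKM of the WGA libraries. Genes higher by 2-fold are most frequent at low levels, genes lower by 1.5-fold at 5 to 20 FPKM, and the median is above 0 from 50 FPKM upward, which turns negative after scaling to ribosomal protein genes.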

How the data were processed

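Poly(A) RNA of whole zebrafish embryos was sequenced in 3 libraries, of which the 2 from WGA-treated embryos were compared. The authors deposited FPKM values, rounded to 2 decimals, for 25386 genes. Per the submitters' processing notes, GRCz11 was the build and the tools were RSEM 1.2.8, Bowtie2 2.2.5 and Trimmomatic 0.36, with no roles stated. Which annotation was used is not given in the sources. FPKM holds no read numbers, so depth is not known and counting intervals cannot be had. Among 4235 genes at low level in both WGA libraries, the commonest FPKM ratio was 0.993 at 5 hpf over 4.3 hpf, searched within a log2 ratio of 0.5 either way, so their depths were similar if 1 read sets that step. Genes at FPKM of 1 or more numbered 13128 in each library, and the columns summed to 411178 FPKM at 5 hpf and 401114 FPKM at 4.3 hpf.

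From these values, log2 ratios with a pseudocount of 1 were computed in Python 3.11.15 (numpy 2.4.6, pandas 2.3.3, matplotlib 3.10.9) over genes at FPKM of 1 or more in either WGA library. The gene lists (36 written gene by gene, 14 by name pattern, with 2 patterns corrected after a first look at their matches) and their members were chosen with earlier results of these data known. Of 1184 written entries 1145 matched, 51 through current names in the NCBI gene table of GRCz12tu, and 118 measured genes belong to more than 1 list. Genes were named by rule. These are the 20 highest and 20 lowest ratios at FPKM of 5 or more with a gene name, up to 6 members of each list by size of ratio, and 16 fixed genes. Others complete a count of 5 or fewer, or were chosen after their values were seen, namely grhl1, grhl3, epcam, capn9, lye, apoc1, cyt1l, krt17, krt97, mxtx1, mxtx2, tdgf1, foxh1, eomesa, gdf3, vent, bmp2b, bmp4, zic2b, polr3gla, blf, duox, duox2, dynll1, sult6b1, fbxo43, hspa5, cdkn1a and the genes of the closing observations. Some genes under the rule are not reported here. Alternatives were other pseudocounts, filters, scalings and fold limits. Promoter sequences were not analysed here.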

Additional observations from a re-analysis of the deposited data

How the results depend on the processing

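No paired analysis was possible because each group had 1 library. The count of 104 higher genes became 207 with a pseudocount of 0.1, 18 with a pseudocount of 5, 191 under TPM, 57 under scaling to ribosomal protein genes, 49 with a filter at FPKM of 5, 304 at 1.5-fold and 6 at 4-fold. The count of 48 lower genes became 158 with a pseudocount of 0.1, 6 with a pseudocount of 5, 140 under TPM, 332 under scaling to ribosomal protein genes, 539 at 1.5-fold and 1 at 4-fold. The share of calls that were higher was 68.4% as reported, 56.7% with a pseudocount of 0.1, 57.7% under TPM, 57.6% with a filter at FPKM of 5, 85.7% at 4-fold and 75% with a pseudocount of 5. Median-of-ratios scaling gave 109 higher and 42 lower, 72.2% higher, and a filter at 0.5 or none gave 104 and 48. Higher counts thus ranged from 6 to 304. The yolk syncytial layer median of 1.34 became 0.48 with a pseudocount of 5 and 0.20 without a filter, the keratin median of 1.66 became 2.65 with a pseudocount of 0.1 and 1.02 without a filter, and the gut and liver median, which is the 1 gene tfa at 0.58, became 1.27 with a pseudocount of 0.1. A low pseudocount widens and a high one narrows ratios of low genes by construction, and dropping the filter adds members near 0. TPM raised the values of both libraries, which sum to 411178 and 401114 FPKM, while the pseudocount and the filter stayed at 1. Both were thus smaller relative to the levels by construction, and 15610 genes passed the filter, against 13478 as reported. The cause of the other shifts was not tested. With 1 library per group, no spread between embryos is known, and the number of reads behind a value of a few FPKM is not known.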

Other observations

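Complexes of lower genes were looked up after their values were seen, so their values are a description. Cdca9 belongs to the chromosomal passenger complex, which corrects attachments of chromosomes to the spindle. All 6 of its genes looked up lay below 0, with a median log2 ratio of -0.61, and cdca9 alone was lower by 2-fold or more. Cdca9, for which the complex was looked up, is in that count and median and was already known to be lower. Incenp, the scaffold, was at 55.97 FPKM at 5 hpf, against 85.86 FPKM at 4.3 hpf, and the kinase gene aurkb at 19.88 FPKM, against 31.04 FPKM. The survivin genes differed, with birc5b at 24.37 FPKM, against 39.77 FPKM, and birc5a at 7.97 FPKM, against 9.44 FPKM.

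Acd belongs to shelterin, the complex that caps telomeres. All 6 of its genes looked up lay below 0, with a median of -0.49, and acd alone was lower by 2-fold or more. Acd, for which shelterin was looked up, is likewise in that count and median. Terf2ip was at 11.38 FPKM at 5 hpf, against 20.35 FPKM at 4.3 hpf, and tinf2 at 14.97 FPKM, against 23.98 FPKM. The double-strand telomere binder terf1 was at 51.21 FPKM, against 64.93 FPKM. The genes of both sets differ in level. Genes at a mean of 10 to 20 FPKM had a median of -0.11 over all 2222 of them. Those at 50 to 100 FPKM, where incenp and terf1 fall, had a median of 0.04 over 1398. The part of level in these sets was not tested.

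A keratin-like gene outside the keratin list was also higher at 5 hpf. The gene named krt99 in the GRCz12tu table, listed under a clone number in the deposited table, was at 4.08 FPKM at 5 hpf, against 0.24 FPKM at 4.3 hpf, a log2 ratio of 2.03. Tmsb1, a thymosin beta gene whose products bind actin monomers, was at 3.34 FPKM, against 0.10 FPKM, and esrp1, an epithelial splicing regulator, at 3.53 FPKM, against 1.08 FPKM. These 3 were chosen after their values were seen. Krt99 and tmsb1 passed 1 FPKM only through 5 hpf and so had to be higher there.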
